A study of Rattus norvegicus with 45 samples.

Results

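Thyroid hormone action and clearance in the liver were followed through 6 genes: Dio1, Thra, Thrb, Klf9, Ttr and Sult1b1. They are 6 of the 14217 genes that have a probe set of their own on the array. Every probe set that the platform annotation pairs with 1 of these symbols alone was taken, which gave 13 of the 31042 probe sets tested: 1 for Dio1, 3 for Thra, 4 for Thrb, 3 for Klf9, 1 for Ttr and 1 for Sult1b1. All 13 were kept, and no filter on low values was applied. Each gene was read on the probe set with the highest mean over all arrays, called its brightest here. Another probe set, 1371237_a_at, is listed with Ttr together with Mt1f and Mt1 and was not counted among the members.

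The livers came from male Sprague-Dawley rats, adult at 10 weeks of age and dosed by gavage, and their RNA was hybridised to Affymetrix Rat Genome 230 2.0 arrays, whose probe sets each measure 1 transcript region. The 45 arrays fall into 9 groups of 5 by their titles: control, myclobutanil and triadimefon after 6 h, 24 h and 14 days. Myclobutanil and triadimefon are triazole fungicides, which inhibit a fungal cytochrome P450 of sterol synthesis. The series text gives the daily dose as 225 mg/kg for myclobutanil and as 175 mg/kg for triadimefon, so the compounds were given at unequal doses. It also counts 15 livers, with 5 biological replicates for each treatment and no mention of times, and the labelling protocol speaks of 3 rats per treatment group; the array titles were followed. What the controls received, and the hour of the day at which livers were taken, are not given in the sources used here. P-values measure the spread between these arrays.

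In the liver, Dio1 removes an outer-ring iodine from thyroxine (T4) and so makes the active hormone triiodothyronine (T3), and it also degrades hormone that is already inactive. T3 acts through the nuclear receptors encoded by Thra and Thrb, of which the beta form is the main one in hepatocytes, and Klf9 is a transcription factor gene that T3 induces and that glucocorticoids induce as well. Ttr carries thyroxine in blood, and Sult1b1 adds sulfate to iodothyronines, which prepares them for breakdown and excretion. Glucuronidation by the Ugt1a enzymes is the other main route of thyroxine clearance, and compounds that raise it can lower circulating thyroxine in rodents. Hormone levels and enzyme activities were not measured in these data.

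All 6 gene IDs matched RefSeq's GRCr8 annotation under the same symbols: Klf9 on chromosome 1, Dio1 on 5, Thra on 10, Sult1b1 on 14, Thrb on 15 and Ttr on 18, all annotated as protein coding. The array data carry no coordinates, and the positions serve only to place the sequences. The 250 bases before the annotated start of Klf9 and of Sult1b1 are shown because Klf9 had the widest step between control times among the 6 genes and Sult1b1 the treatment difference that depended on the scaling. The Klf9 stretch lies at chr1:230126396-230126645 and the Sult1b1 stretch at chr14:20771667-20771916, both on the plus strand, from RefSeq's GRCr8 promoter table. Capitals mark matches to 5 motifs searched on both strands.
Klf9: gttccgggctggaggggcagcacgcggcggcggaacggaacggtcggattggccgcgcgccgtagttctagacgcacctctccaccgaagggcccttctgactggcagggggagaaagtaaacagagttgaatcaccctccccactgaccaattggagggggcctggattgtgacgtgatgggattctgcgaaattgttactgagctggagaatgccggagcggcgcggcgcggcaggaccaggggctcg
Sult1b1: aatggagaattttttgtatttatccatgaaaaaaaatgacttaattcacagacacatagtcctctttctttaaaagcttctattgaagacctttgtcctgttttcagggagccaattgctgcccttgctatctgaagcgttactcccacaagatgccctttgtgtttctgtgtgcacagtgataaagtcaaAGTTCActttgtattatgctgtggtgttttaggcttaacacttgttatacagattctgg
The motifs were AGGTCA and AGTTCA, half-sites read by nuclear receptors, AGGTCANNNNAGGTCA, the direct repeat with 4 bases between its repeats that thyroid hormone receptors are known to bind, the E-box CACGTG and the D-box TTATGTAA. AGTTCA was found in Sult1b1, 59 to 54 bases before the start, and in the second annotated promoter of Thra on the minus strand, 103 to 98 bases before the start. None of the 5 was found in the windows of Dio1, Thrb, Klf9 and Ttr, nor in the first promoter of Thra. The windows of Thrb, Ttr and the second Thra promoter lie inside the annotated spans of their genes. Of 33469 promoter windows of this length, 14.1% hold AGGTCA, 12.2% AGTTCA, 5.59% CACGTG, 0.828% TTATGTAA and 0.00299% the direct repeat, so the AGTTCA matches are of a common kind. The exact direct repeat is so rare that its absence from these windows carries no information. The windows differ in base composition, with 63.6% G or C in Klf9 and 37.2% in Sult1b1.

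Values are the deposited ones, in score units: a scale of log type that runs from -0.984 to 5.69 and whose base is not given in the sources used here, so differences are not turned into folds. Array medians lay between -0.0122 and 0.0326, but the 99th percentiles ran from 2.693 to 3.543, so arrays differ most at the bright end, where Ttr and Sult1b1 lie. Over the 305 probe sets with a mean above 3, the deposited scores had a median within-group SD of 0.218. Quantile normalization, which gives every array the same distribution, brought it to 0.0581. For the 30737 other probe sets it was 0.0444 and 0.0409. Results for Ttr and Sult1b1, and called results of other genes that quantile normalization moved by over 1.5 times, are therefore given on both scales. Results without a call are given as deposited unless stated. The endings of the array file names were 11 on 36 arrays and something else on 9, of which 8 belong to the 6 h groups; what the ending stands for is not given. The 8 hepatocyte markers averaged from 3.39 to 4.43 per array, with means of 2.28 and above for each marker, and the 4 measured thyroid gland markers averaged below 0 on every array. No arrays were identical.

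As deposited, none of the 6 genes differed from controls at an adjusted p under 0.05 (limma, Benjamini-Hochberg over 31042 probe sets) in any of the 6 comparisons of a compound with the control of the same time. The share of all probe sets called was 0.38% for myclobutanil and 0.915% for triadimefon at 6 h, 8.47% and 7.98% at 24 h, and 0.792% and 6.69% at 14 days. At unadjusted p under 0.05, the count was 0 of 6 genes in 5 comparisons and 2 of 6, Thra and Klf9, for triadimefon at 14 days. The median difference over the 6 genes ran from -0.105 (myclobutanil, 24 h) to 0.103 (myclobutanil, 14 days), beside medians over all genes of -0.0142 and 0.0171. After quantile normalization Sult1b1 was called higher in 3 of the 6 comparisons, with 10.8%, 9.03% and 9.15% of all probe sets called in them; in the other 3 none of the 6 genes was called, with 1.42%, 2.67% and 1.11% of all probe sets. The change of each compound's effect from 6 h to 24 h and from 24 h to 14 days was called for 0 of 6 genes in 4 comparisons, with 1.75% and 4.56% of all probe sets called for myclobutanil and 3.13% and 12.7% for triadimefon. Between the compounds, 0 of 6 genes were called at 6 h, 24 h or 14 days, with 0.251%, 1.06% and 0.332% of all probe sets called, at doses that differ. At unadjusted p under 0.05 those 3 counts were 0, 0 and 2 of 6, the last being Dio1 and Klf9.

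**Figure D1:**
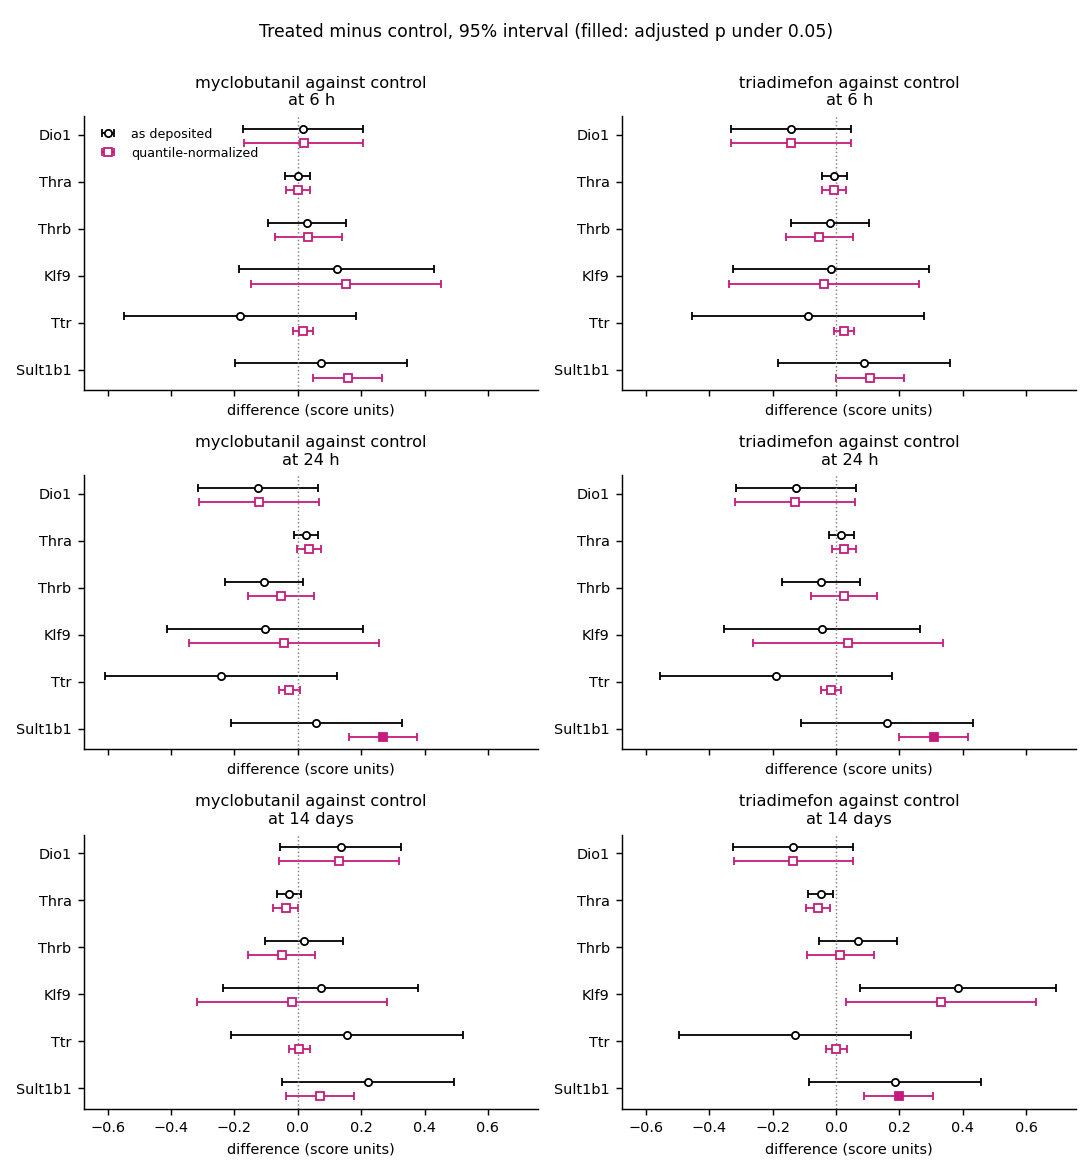
Treated minus control differences (score units, x axis) of the brightest probe set of each gene, 1 panel per compound and time; circles are deposited values, squares quantile-normalized ones, bars 95% intervals from the limma fit over 45 arrays, and filled symbols have an adjusted p under 0.05. No circle is filled, and the 3 filled squares are Sult1b1 with both compounds at 24 h and with triadimefon at 14 days.

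Dio1, the activating deiodinase, was variable within every group. Its signal was low, with a mean of 0.238 over all arrays and ranks of 5675 to 16097. The lowest value, -0.0237 with triadimefon at 14 days, was below the lowest array median of -0.0122. Whether a signal at this level follows changes in Dio1 was not tested, so the absence of calls does not show that Dio1 was unchanged. Control arrays read 0.207, 0.449, 0.145, 0.478 and 0.480 at 6 h, then 0.445, 0.165, 0.196, 0.178 and 0.261 at 24 h. At 14 days the controls read 0.408, 0.0726, 0.260, 0.279 and 0.175. The spread within a group was thus as wide as any step between control times, and the control groups overlapped. Differences from controls ran from -0.143 (triadimefon, 6 h) to 0.135 (myclobutanil, 14 days), with 95% intervals between -0.333 and 0.325 and adjusted p from 0.39 to 0.99. At 24 h both compounds stood at a mean of 0.122 against 0.249 in controls, a difference of -0.127 (SE 0.094) each, with adjusted p of 0.47 for myclobutanil and 0.46 for triadimefon. These 2 comparisons share their 5 control arrays. At 14 days the compounds went opposite ways from controls: 0.584, 0.118, 0.605, 0.513 and 0.0510 with myclobutanil, in which 3 arrays are high and 2 low, and -0.0237, 0.00134, 0.174, -0.00069 and 0.369 with triadimefon. Triadimefon was 0.270 lower than myclobutanil there (95% interval -0.460 to -0.0800, adjusted p = 0.22), with overlapping arrays. In the order of the 9 group means, no neighbours differed by more than the pooled SD of 0.155.

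Thra, the receptor alpha gene, had a narrow range on its brightest probe set, with a pooled SD of 0.0282. Control arrays at 6 h read 0.17, 0.181, 0.204, 0.197 and 0.175. At 24 h they read 0.260, 0.238, 0.206, 0.232 and 0.232, and at 14 days 0.268, 0.331, 0.264, 0.269 and 0.277. Every 24 h and 14 day control was above every 6 h control. The rise from 6 h to 14 days was 0.0962 (95% interval 0.0578 to 0.135, adjusted p = 0.0025), and from 6 h to 24 h it was 0.0485 (adjusted p = 0.20). Across probe sets, 2.5% had control groups that did not overlap between 6 h and 24 h and 4.32% between 6 h and 14 days, and 2.78% and 3.33% were called in these comparisons. The call at 14 days held in all 10 fits that left out 1 of these control arrays (adjusted p from 0.0034 to 0.015). The other 2 probe sets of Thra did not follow: 1370691_a_at had control means of 0.157 at 6 h and 0.144 at 14 days, 1380518_s_at had means of -0.599 and -0.594, and with the mean of the probe sets the difference was 0.0296 (adjusted p = 0.32).

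All 3 groups at 6 h were at the bottom for Thra, with means of 0.185 in controls, 0.185 with myclobutanil and 0.181 with triadimefon. The step from these to the next group, triadimefon at 14 days with 0.233, was the 1 of 8 neighbouring steps wider than the pooled SD. Triadimefon arrays at 14 days read 0.217, 0.232, 0.294, 0.173 and 0.25, overlapping their controls. Their mean was 0.0485 lower than that of the controls (95% interval -0.0869 to -0.0101), with an adjusted p of 0.11, and without triadimefon 14 day replicate 3 the difference was -0.0638 (adjusted p = 0.040).

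Thrb, the receptor beta gene, is measured by 4 probe sets, whose means over all arrays were 1.17, 0.555, 0.0899 and -0.0922. Levels of different probe sets cannot be set against each other, so each was read along its own groups. On the brightest, 1394456_at, control arrays read 1.08, 1.26, 1.11, 1.41 and 1.28 at 6 h, 1.09, 1.29, 1.17, 1.08 and 1.17 at 24 h, and 1.29, 1.01, 1.07, 1.06 and 1.19 at 14 days. These groups overlapped throughout, and the differences of -0.0674 and -0.104 from 6 h had adjusted p of 0.73 and 0.37. With treatment its differences ran from -0.108 (myclobutanil, 24 h, adjusted p = 0.31) to 0.0693 (triadimefon, 14 days, adjusted p = 0.52), with intervals between -0.231 and 0.193. After quantile normalization the treatment differences ran from -0.0526 to 0.0336 (limma adjusted p of 0.6 or more). No neighbouring group means of this probe set differed by more than the pooled SD of 0.10. The second, 1378457_at, had control means of 0.555, 0.566 and 0.536 at the 3 times. Its treatment differences ran from -0.0500 to 0.0592 (adjusted p of 0.47 or more), and from -0.0211 to 0.0278 after quantile normalization. On the fourth, 1387983_at, control means were -0.0327, -0.105 and -0.0793. Treatment differences there ran from -0.0717 (triadimefon, 6 h, unadjusted p = 0.0054) to -0.000844, with adjusted p of 0.17 or more. Neither probe set was called between control times.

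The third Thrb probe set, 1370474_at, fell with time in the controls. The 6 h controls of 1370474_at read 0.0760, 0.107, 0.190, 0.214 and 0.285, against 0.00573, 0.0377, 0.0123, -0.0531 and 0.103 at 24 h and 0.0716, -0.00668, 0.00876, 0.0134 and 0.040 at 14 days. The 14 day arrays were all below the 6 h arrays, and 1 array of 24 h overlapped them. The differences were -0.153 (SE 0.043, adjusted p = 0.042) and -0.149 (SE 0.043, adjusted p = 0.045), both close to the threshold. Without 1 control array, the adjusted p rose to at most 0.15 and 0.16, and 3 and 2 of 10 such fits respectively kept the call. Both calls were lost without control 6 h replicate 3, 4 or 5, the first also without control 24 h replicate 1, 2, 3 or 4, and the second without any 1 of the 5 control 14 day arrays. Fitted on the groups compared alone, the adjusted p was 0.17 and 0.066. The means of treated arrays at 6 h, 0.255 with myclobutanil and 0.180 with triadimefon, were likewise above those at 24 h, 0.0391 and 0.0588, and at 14 days, 0.0161 and 0.0398. The treated groups did not differ from controls of the same time on this probe set (differences from -0.00935 to 0.0805, adjusted p of 0.66 or more), which does not show that they are equal.

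**Figure D2:**
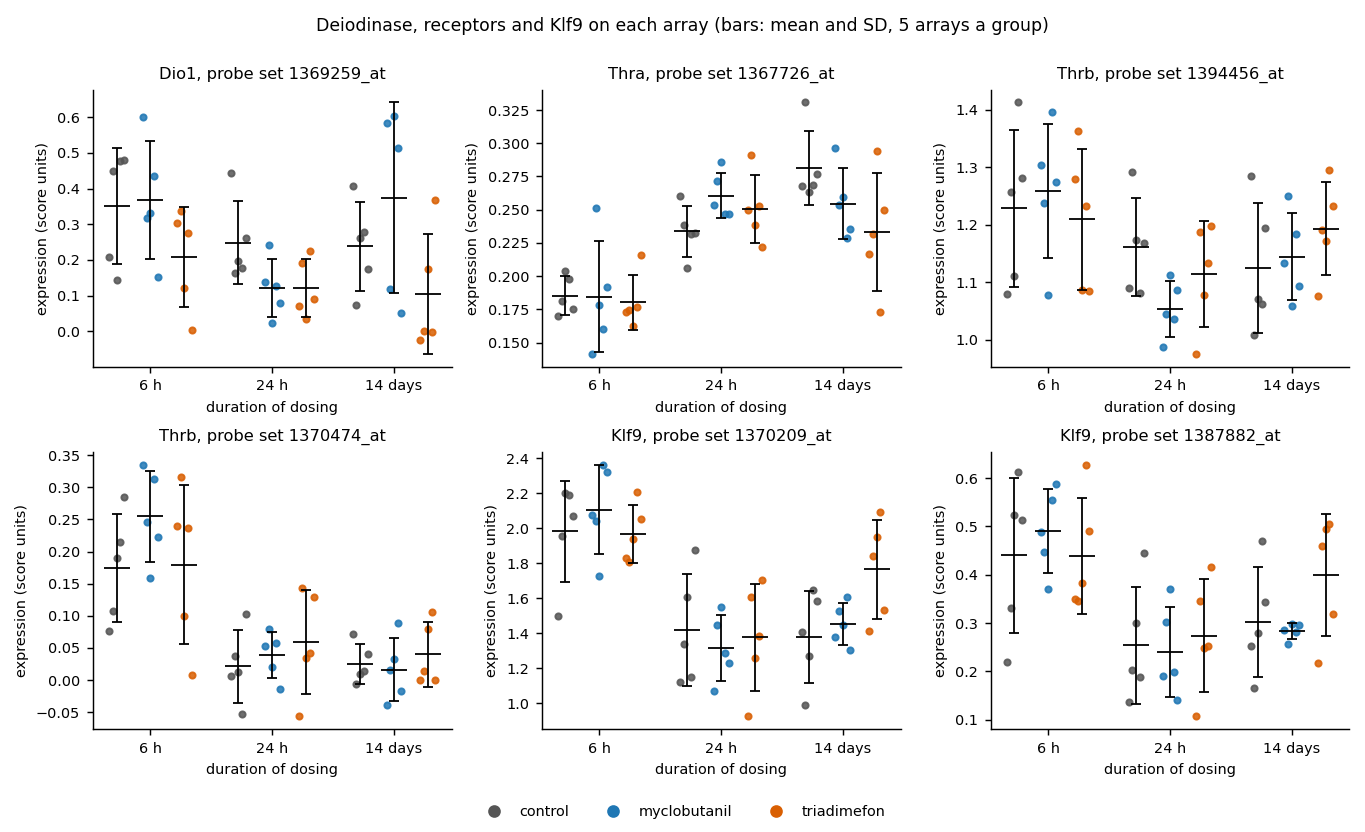
Expression in score units (y axis) of Dio1, Thra, 2 probe sets of Thrb and 2 of Klf9 on each array, by duration of dosing (x axis) and treatment (colour), with mean and SD of 5 arrays; each panel has its own axis, which does not start at 0. Klf9 and the Thrb probe set 1370474_at had their 3 highest group means at 6 h, Thra its 3 lowest, and triadimefon at 14 days came next for Klf9 with a mean of 1.77 on the brightest probe set.

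Klf9, the hormone-induced transcription factor gene, showed the widest time step of the 6 genes. On its brightest probe set, 1370209_at, control arrays read 1.5, 1.96, 2.20, 2.19 and 2.07 at 6 h. They read 1.13, 1.34, 1.61, 1.15 and 1.88 at 24 h and 1.41, 0.991, 1.27, 1.65 and 1.59 at 14 days. In the 6 h group, 4 arrays were above every later control, and control 6 h replicate 1 lay among the later ones, so the groups overlapped. Klf9 fell by 0.563 from 6 h to 24 h (SE 0.15, 95% interval -0.872 to -0.254, adjusted p = 0.032) and by 0.602 from 6 h to 14 days (95% interval -0.911 to -0.294, adjusted p = 0.020). The 6 h means of the treated groups, 2.11 with myclobutanil and 1.97 with triadimefon, stood with the control mean of 1.98, and all 24 h means lay between 1.32 and 1.42. The second probe set, 1387882_at, went the same way, from 0.440 at 6 h to 0.254 and 0.302, but its differences of -0.186 and -0.138 were not called (adjusted p of 0.16 and 0.28). The third, 1390076_at, was below 0 on every array, with control means of -0.17, -0.188 and -0.171.

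The 2 control calls of Klf9 rest on few arrays. Without control 6 h replicate 3, 4 or 5, or control 24 h replicate 1, 2 or 4, the step to 24 h lost its call (adjusted p up to 0.11), and without control 6 h replicate 4 or 5, or control 14 day replicate 2, the step to 14 days did (adjusted p up to 0.087). The direction held in each of these fits, with differences of -0.685 to -0.489 and of -0.724 to -0.505. Within arrays of file-name ending 11, which keep only replicates 1, 4 and 5 of the 6 h controls, the differences were -0.499 (adjusted p = 0.17) and -0.538 (adjusted p = 0.088). With the mean of the 3 probe sets of Klf9 they were -0.256 (adjusted p = 0.057) and -0.247 (adjusted p = 0.063), and on the groups compared alone the adjusted p was 0.21 and 0.06. Another gene of the receptor and co-regulator list, Nr1d1, a circadian repressor, moved along the same steps: its control mean was 0.873 at 6 h, -0.184 at 24 h and -0.186 at 14 days, differences of -1.06 each (adjusted p of 4.8e-11 and 3.2e-11). How far the hour of sampling enters these steps was not tested, since the labels give no hour.

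At 14 days Klf9 was higher with triadimefon in mean, without passing the test. Triadimefon arrays read 1.42, 1.84, 1.95, 2.09 and 1.53 and myclobutanil arrays 1.38, 1.53, 1.45, 1.61 and 1.31, beside the controls of 0.991 to 1.65. Of the triadimefon arrays 3 were above every control and myclobutanil array, and the other 2 lay among them. The difference from controls was 0.385 (SE 0.15, 95% interval 0.0762 to 0.694), with an adjusted p of 0.12 that ran from 0.071 to 0.24 over 10 other settings and from 0.078 to 0.33 without 1 array. With the mean of the 3 probe sets the difference was 0.144. Against myclobutanil, given at the higher dose, the difference was 0.313 (95% interval 0.00433 to 0.622, adjusted p = 0.40). The step of 0.313 below triadimefon at 14 days was the only one of 8 in the order of group means wider than the pooled SD of 0.252. The probe set 1387882_at had a mean of 0.399 with triadimefon and 0.302 in controls (adjusted p = 0.40). In the same comparison Nr1d1 rose by 0.557 (SE 0.086, adjusted p = 5.8e-05), from a mean of -0.186 to 0.371, with triadimefon arrays from -0.0809 to 0.848 and controls from -0.212 to -0.151.

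Ttr, the thyroxine carrier made by hepatocytes, was among the 15 brightest probe sets on each array, with ranks of 7 to 15. Control arrays ran from 3.93 to 5.11 at 6 h, from 4.29 to 5.16 at 24 h and from 4.27 to 5.0 at 14 days. The spread within groups, a pooled SD of 0.299, was wider than every difference from controls, which ran from -0.243 (myclobutanil, 24 h) to 0.154 (myclobutanil, 14 days), with adjusted p of 0.47 or more and intervals between -0.609 and 0.521. The 9 group means lay from 4.29 to 4.74, and no neighbours differed by more than the pooled SD. Over the 45 arrays Ttr went with albumin, whose gene Alb gave r = 0.996, and both are near the top of the scale, where arrays differed most. Quantile normalization leaves almost no room for change at that rank, so its pooled SD of 0.0232 and differences of -0.0272 to 0.0250 are set largely by the method. The other 3 thyroid hormone binding proteins had no call either, in any of the 6 comparisons.

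Sult1b1, the sulfotransferase, is a bright gene as well, with ranks of 87 to 263. Deposited values of the controls were 2.99, 3.71, 3.43, 3.10 and 3.25 at 6 h, 3.14, 3.94, 3.40, 3.14 and 3.49 at 24 h, and 3.21, 3.43, 3.20, 3.24 and 3.36 at 14 days. Myclobutanil arrays at 24 h read 3.65, 3.30, 3.61, 3.52 and 3.33, and triadimefon arrays 3.47, 3.56, 3.55, 3.44 and 3.90. Control 24 h replicate 2, with 3.94, was the highest of the 45 arrays for this gene, and that same array held the highest Ttr value, 5.16. As deposited, the differences at 24 h were 0.0588 (SE 0.13, adjusted p = 0.85) with myclobutanil and 0.162 (SE 0.13, adjusted p = 0.52) with triadimefon. All 6 differences from controls were above 0, from 0.0588 to 0.221, with adjusted p from 0.41 to 0.95.

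After quantile normalization the pooled SD of Sult1b1 fell to 0.0881 and the 24 h groups separated. The 5 controls then read 3.23, 3.37, 3.37, 3.28 and 3.36, against 3.69, 3.53, 3.59, 3.49 and 3.65 with myclobutanil and 3.69, 3.47, 3.60, 3.63 and 3.75 with triadimefon. Every treated array was above every control array. The share of all probe sets without overlap was counted on deposited scores only, at 6.35% with myclobutanil and 5.61% with triadimefon. On the quantile-normalized scale Sult1b1 rose by 0.270 with myclobutanil (SE 0.053, adjusted p = 0.00043) and by 0.308 with triadimefon (SE 0.053, adjusted p = 0.00014). At 14 days it rose by 0.197 with triadimefon (adjusted p = 0.016), where 1 triadimefon array lay below the highest control, and stood 0.0701 higher with myclobutanil (adjusted p = 0.61). With the 99th percentile of each array as a covariate, a setting chosen after seeing the data, the same 3 differences were called, at 0.259, 0.368 and 0.179 (adjusted p of 0.00095, 1.4e-05 and 0.023). The call of Sult1b1 thus depends on how the bright end of the arrays is scaled, and under the deposited scaling it was not made. In the order of deposited group means no neighbours differed by more than the pooled SD of 0.222.

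**Figure D3:**
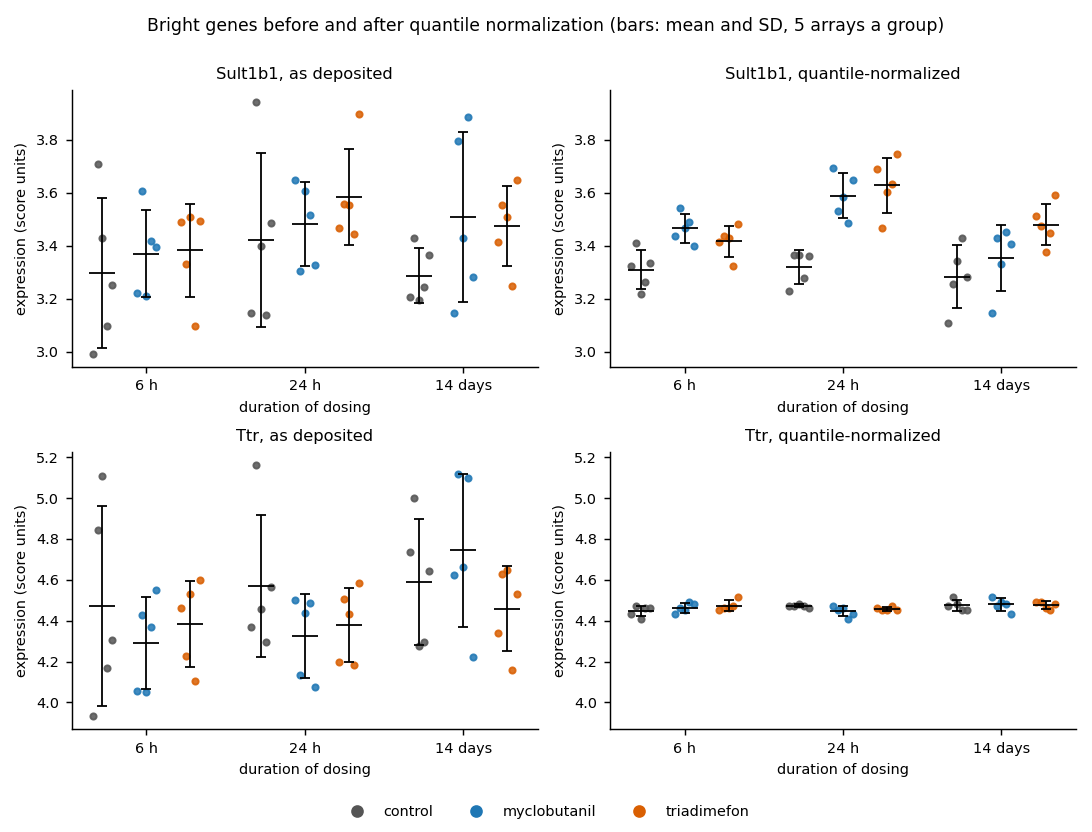
Sult1b1 (top) and Ttr (bottom) on each array in score units (y axis), as deposited (left) and after quantile normalization (right), with mean and SD of 5 arrays per group; each pair of panels shares its axis, which does not start at 0. Control and treated arrays of Sult1b1 overlap at 24 h as deposited and separate after quantile normalization, while the spread of Ttr shrinks from a pooled SD of 0.299 to 0.0232.

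The genes around these 6 were read from 7 lists of 79 thyroid hormone genes, 62 of which were measured: transport, binding, deiodination and selenoprotein synthesis, receptors and co-regulators, responsive liver genes, sulfation and glucuronidation. With myclobutanil at 6 h, 2 of the 62 were higher and 0 lower, where 0.271% and 0.11% of all probe sets were. At 24 h the counts were 5 higher and 4 lower beside 3.05% and 5.42% of all probe sets, and at 14 days 4 higher and 0 lower beside 0.734% and 0.058%. With triadimefon 1 was higher and 0 lower at 6 h, beside 0.738% and 0.177%. At 24 h triadimefon had 4 higher and 7 lower, beside 2.24% and 5.75%, and at 14 days 10 higher and 1 lower, beside 3.89% and 2.8%. Median differences of the 62 were small, from -0.0352 (myclobutanil, 24 h) to 0.0469 (myclobutanil, 14 days), beside medians of all genes between -0.0142 and 0.0171. At myclobutanil 24 h, all 9 of 9 measured Kupffer cell and macrophage markers fell as well (array means from 0.824 to 1.11 against 1.16 to 1.67 in controls). So did 2 of 5 endothelial markers, Pecam1 and Lyve1, and 2 of 8 stellate cell markers, Colec11 and Pdgfrb. Array means over all 5 endothelial markers were 0.989 to 1.11 against 1.03 to 1.30 in controls. Over all 8 stellate cell markers they were 0.490 to 0.598 against 0.604 to 0.751. Of 8 hepatocyte markers none was called, with a median difference of -0.232 (array means over all 8 from 3.41 to 3.82 against 3.65 to 4.43). The part of these cell types in the results at that time was not tested. In whole liver, fewer cells of a type and less RNA per cell cannot be told apart.

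Of the 6 measured genes of the glucuronidation list, 1 rose at 24 h with each compound, and 1 with myclobutanil and 2 with triadimefon rose at 14 days. Of all probe sets, 3.05% with myclobutanil and 2.24% with triadimefon were called higher at 24 h, and 0.734% and 3.89% at 14 days. After quantile normalization 3 and 2 of the listed genes rose at 24 h, and 1 and 4 at 14 days. There are 2 further probe sets listed with 8 Ugt1a genes of 1 locus and cannot be given to any 1 of them; they were added after the files were seen, because the lists name single genes. On 1370613_s_at the controls ran from 2.81 to 3.22 at 6 h, 2.79 to 3.32 at 24 h and 2.57 to 3.13 at 14 days. Myclobutanil arrays ran from 3.46 to 3.73 at 24 h and triadimefon arrays from 3.38 to 4.0, all above every control. At 24 h, 6.35% and 5.61% of all probe sets had no overlap with controls. The differences at 24 h were 0.574 with myclobutanil (SE 0.12, adjusted p = 0.0015) and 0.619 with triadimefon (SE 0.12, adjusted p = 0.00093). At 14 days they were 0.542 (adjusted p = 0.018) and 0.674 (adjusted p = 0.00053), and at 6 h 0.298 and 0.190, not called as deposited (adjusted p of 0.43 and 0.60). The myclobutanil difference at 6 h was called after quantile normalization, at 0.377 (adjusted p = 0.0010). The myclobutanil call at 14 days was lost without control 14 day replicate 3 or 4, or myclobutanil 14 day replicate 2 or 4 (adjusted p up to 0.14), and in the fit on the groups compared alone (adjusted p = 0.11). The second probe set, 1387759_s_at, gave 0.531 and 0.602 at 24 h and 0.484 and 0.685 at 14 days, with the same 4 calls. For 1387759_s_at, on the groups compared alone the calls of triadimefon at 24 h (adjusted p = 0.054) and myclobutanil at 14 days (adjusted p = 0.10) were lost, the latter also on arrays of ending 11 (adjusted p = 0.057), and after quantile normalization that difference was 0.321 (adjusted p = 0.0058).

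Ugt2b1, a glucuronosyltransferase of the other family, rose with both compounds at 24 h and 14 days. Its control means were 1.91, 2.33 and 1.75 at 6 h, 24 h and 14 days. The differences were 1.04 (SE 0.19, adjusted p = 0.00019) and 0.853 (SE 0.19, adjusted p = 0.0027) at 24 h with myclobutanil and triadimefon, and 1.66 (adjusted p = 3.8e-07) and 1.5 (adjusted p = 1e-06) at 14 days. No treated array overlapped the controls in these 4 comparisons. Of all probe sets, 6.35% and 5.61% had groups that did not overlap at 24 h, and 2.91% and 7.92% at 14 days. Ugt2b10 rose with triadimefon at 14 days by 0.598 (SE 0.13, adjusted p = 0.0028), and at 24 h its difference of 0.322 (adjusted p = 0.11) was called after quantile normalization, at 0.455 (adjusted p = 0.015). The other measured glucuronosyltransferases had no call as deposited in any of the 6 comparisons.

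Of the sulfation list, 3 of 9 measured genes fell at 24 h with each compound and none rose as deposited, where 5.42% and 5.75% of all probe sets were called lower. After quantile normalization 1 rose and 3 fell with myclobutanil, and 1 rose and 2 fell with triadimefon. Sult1a1, a phenol sulfotransferase, fell from a control mean of 3.43, with differences of -0.539 for myclobutanil (SE 0.13, adjusted p = 0.0062) and -0.554 for triadimefon (SE 0.13, adjusted p = 0.0058); the latter was lost on the groups compared alone (adjusted p = 0.091). Sult1c3 fell by 0.366 (adjusted p = 0.039) and 0.374 (adjusted p = 0.037), and after quantile normalization its differences were -0.231 and -0.221. Papss2, which makes the sulfate donor, fell by 0.338 (adjusted p = 0.0095) and 0.305 (adjusted p = 0.021). The 3 genes and Sult1b1 thus stood on opposite sides of 0 at 24 h. The deposited differences of Sult1b1, 0.0588 with myclobutanil and 0.162 with triadimefon, were not called, so its side of 0 on that scale is not established. The calls of Sult1c3 and Papss2 with both compounds were lost without control 24 h replicate 2, the brightest array for Sult1b1, at differences of -0.288 and -0.296 for Sult1c3 and of -0.238 and -0.206 for Papss2. Leaving out 1 array at a time, Sult1c3 kept its calls in 4 and 3 of 10 fits, and Papss2 in 9 and 8 (the other loss being triadimefon 24 h replicate 1). On the groups compared alone, no call of Sult1c3 (adjusted p of 0.099 and 0.11) or Papss2 (0.088 and 0.19) was made. Papss2 with triadimefon was not called after quantile normalization either (-0.163, adjusted p = 0.10).

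Of the 12 measured transport genes, myclobutanil had 2, 4 and 2 called higher at 6 h, 24 h and 14 days and none lower, and triadimefon 1, 3 and 5 higher and 1 lower, Slc7a8 at 14 days. Of all probe sets, 0.271%, 3.05% and 0.734% were called higher with myclobutanil at these times. With triadimefon 0.738%, 2.24% and 3.89% were higher, and 2.8% were lower at 14 days. The list's medians ran from 0.0167 to 0.156. Slc3a2 and Slco1a1 were among those higher, and these 3 genes lie outside the rule for named genes. Slco1a4, an uptake transporter of thyroid hormones and bile acids, had control means of 2.58, 2.54 and 2.39 at the 3 times and rose by 0.458 with myclobutanil at 6 h (adjusted p = 0.011), by 0.885 with myclobutanil and 0.855 with triadimefon at 24 h (adjusted p of 3.6e-08 and 1.3e-07), and by 0.716 and 0.782 at 14 days. With triadimefon at 6 h the difference was 0.30 (adjusted p = 0.13; 0.046 after quantile normalization). Abcb1a, an efflux pump, rose in 5 of the 6 comparisons, by 0.732 and 0.436 at 6 h, 0.658 and 0.783 at 24 h and, with triadimefon, 0.578 at 14 days; with myclobutanil at 14 days the difference was 0.188 (adjusted p = 0.38). Abcc3, which exports glucuronides to blood, rose with both compounds at 24 h and 14 days, most with triadimefon at 14 days (1.13, SE 0.096, adjusted p = 1.1e-10). Its triadimefon call at 24 h was the weakest (0.314, adjusted p = 0.035) and was kept in 3 of 10 fits that left out 1 array, with the smallest difference without triadimefon 24 h replicate 5 (0.225, adjusted p = 0.14); it was also lost on the groups compared alone (adjusted p = 0.094) and on arrays of ending 11 (adjusted p = 0.066). The 6 h call of Slco1a4 was lost without myclobutanil 6 h replicate 2 (0.408, adjusted p = 0.065). Within arrays of file-name ending 11, the 6 h calls of Abcb1a and Slco1a4 were not made (adjusted p of 0.18 and 0.37 with myclobutanil, and 0.74 for Abcb1a with triadimefon). At 6 h that ending leaves only control replicates 1, 4 and 5, myclobutanil replicates 1 and 2 and triadimefon replicates 4 and 5. The smaller groups and the ending cannot be told apart in these losses.

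Genes known to respond to thyroid hormone did not move as a block. Of the 12 measured, 1 was called lower with myclobutanil and 2 with triadimefon at 24 h, beside 5.42% and 5.75% of all probe sets. At 14 days 1 was called higher with each compound, beside 0.734% and 3.89%. Cyp7a1, the rate-limiting enzyme of bile acid synthesis, fell at 24 h by 1.60 with myclobutanil (SE 0.27, adjusted p = 9.3e-05) and by 1.34 with triadimefon (SE 0.27, adjusted p = 0.0014). Thrsp, a regulator of fat synthesis, fell by 1.20 with triadimefon at 24 h (adjusted p = 0.00089), and with myclobutanil its difference was -0.700 (adjusted p = 0.053; 0.046 after quantile normalization). Me1, malic enzyme, rose at 14 days, by 0.767 with myclobutanil (adjusted p = 0.0019) and, with triadimefon, by 0.464 (adjusted p = 0.037); the latter call was lost without any 1 of control 14 day replicates 1, 4 and 5 or triadimefon 14 day replicates 3 and 5. On the groups compared alone neither Me1 call was made (adjusted p of 0.083 and 0.11), and with the mean of its probe sets the triadimefon difference was 0.371 (adjusted p = 0.09). Of the 8 deiodination and selenoprotein genes, Sepsecs and Pstk, which make selenocysteine tRNA, fell with triadimefon at 24 h by 0.177 and 0.119 (adjusted p of 0.010 and 0.0094). Of all probe sets, 5.75% were called lower in that comparison and 3.89% higher with triadimefon at 14 days. Pstk rose with triadimefon at 14 days by 0.102 (adjusted p = 0.032), a call kept in 2 of 10 fits that left out 1 array; that of Sepsecs was lost without control 24 h replicate 2 (adjusted p = 0.081) and on the groups compared alone (adjusted p = 0.13), and its difference after quantile normalization was -0.0847.

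**Figure D4:**
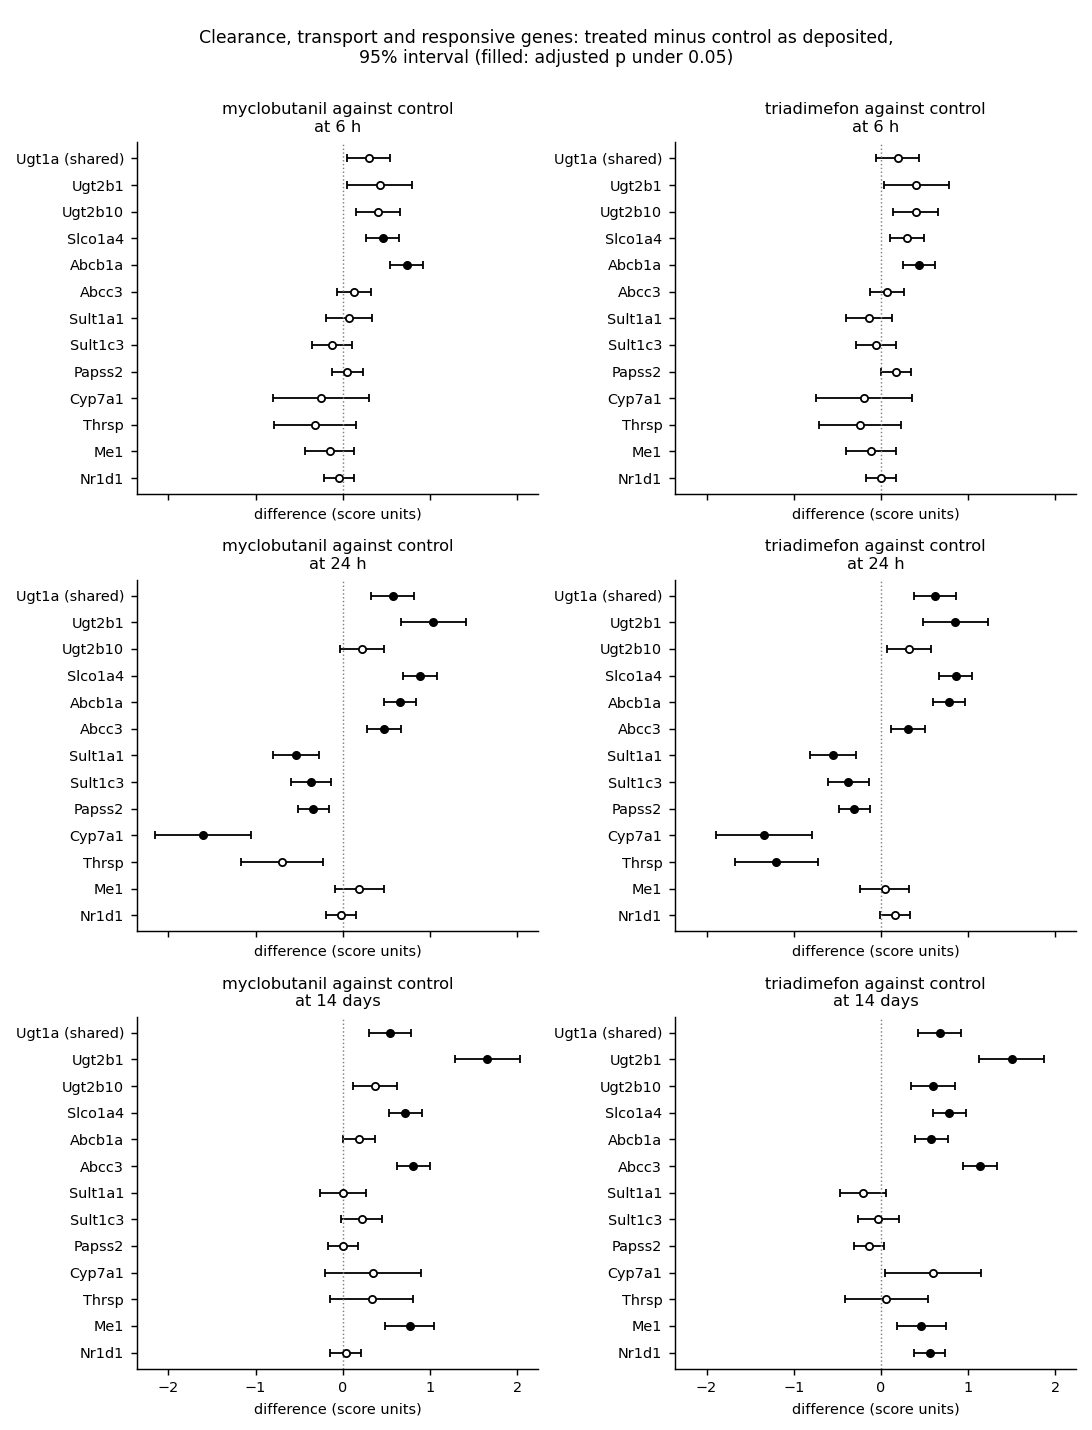
Treated minus control differences as deposited (score units, x axis) for the shared Ugt1a probe set 1370613_s_at and 12 genes of the lists, 1 panel per compound and time, with 95% intervals from the limma fit; filled points have an adjusted p under 0.05. At 24 h the Ugt1a probe set, Ugt2b1, Slco1a4, Abcb1a and Abcc3 were higher with both compounds, and Sult1a1, Sult1c3, Papss2 and Cyp7a1 lower.

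The genes whose pattern over the 45 arrays was most like each member were named from 9493 candidates, as a description with no test; the arrays share their processing and their brightness. For Klf9 they were Gpr146 (r = 0.85), Hapstr1 (0.845) and Enpp2 (0.815), and r over the 9 group means was 0.956, 0.965 and 0.935. For Thra they were Ppard (0.778), Bmal1 (0.765) and Inhba (0.762), and for Thrb Ggnbp2 (0.806), Rabgap1 (0.765) and Otud5 (0.763). After quantile normalization the values for Thrb fell to 0.733, 0.642 and 0.691, while those for Thra were 0.807, 0.765 and 0.782. Dio1 had no close partner, with Tmem68 (0.557), Ddhd2 (0.552) and Tradd (0.515) nearest. For Sult1b1 they were Txn1 (0.876), Cyb5a (0.864) and Ubl3 (0.860), and these fell to 0.676, 0.713 and 0.641 after quantile normalization. For Ttr they were Alb (0.996), Rup2 (0.995) and Apoh (0.994), and r fell to 0.333 for Rup2 and -0.232 for Apoh after quantile normalization, when Alb has 1 value on all arrays.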

How the data were processed

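Rat liver RNA was measured on 45 Affymetrix Rat Genome 230 2.0 arrays. The deposited values are scores, 1 per probe set and array, that the authors processed to arrays centred near 0 on a log-type scale. The summarisation, background correction, normalization and log base are not given in the sources used here, so no fold is stated. Of 31099 probe sets, 57 controls were left out. The platform annotation gives 1 gene for 20826 of the remaining 31042, several for 436 and none for 9780. The scores were fitted as deposited, without further normalization, by limma 3.58.1 in R 4.3.3 (lmFit and eBayes, 1 mean per group over 45 arrays), with Benjamini-Hochberg adjustment over 31042 probe sets per comparison and a threshold of 0.05. There were 15 comparisons: 6 of treatment with control, 3 between compounds, 2 between control times and 4 of treatment effects between times. The limma fit was tested on simulated arrays with independent noise and known differences in probe sets less bright than Ttr and Sult1b1. Differences between arrays shared by the bright probe sets were not part of that simulation. The number of arrays limits the precision.

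Members, gene lists and tests were chosen with earlier results of these data known. All members are named, with up to 3 called genes per list and comparison, and the 3 genes most correlated with each member. Alternatives were quantile normalization, equal array medians, only brighter probe sets, only the groups compared, the mean of a gene's probe sets, a variance trend with robust moderation, the file-name ending, a replicate block, each array left out in turn and, added after seeing the data, each array's 99th percentile as a covariate.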

Additional observations from a re-analysis of the deposited data

Results flagged for a closer look

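Single arrays stood apart from the other 4 of their group by Dixon's test in 4 of the 117 combinations of member probe set and group that were checked, and chance marks about 1 in 20. For Thra on 1367726_at they were triadimefon 6 h replicate 5, at 0.216, and control 14 day replicate 2, at 0.331. For Thra on 1380518_s_at it was control 14 day replicate 4, at -0.645. For Sult1b1 it was triadimefon 24 h replicate 5, at 3.90, which after quantile normalization stood at 3.75 beside 3.69 on another array of its group.

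The probe set 1371237_a_at, listed with Mt1f, Ttr and Mt1 and used in no comparison of the members, was higher with triadimefon than in controls at 14 days. Triadimefon arrays at 14 days ran from 3.53 to 3.83 and control arrays from 1.02 to 2.57, a difference of 1.84 (SE 0.32, adjusted p = 0.00034, limma with Benjamini-Hochberg adjustment), with all 5 treated arrays above all controls. In that comparison 7.92% of all probe sets had groups that did not overlap. Control arrays at 6 h ran from 3.18 to 4.31. With myclobutanil, and with triadimefon at 6 h and 24 h, the differences ran from -0.629 to 0.569 and none was called. The probe set of Ttr alone differed by -0.130 in the same comparison (adjusted p = 0.71).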

How the results depend on the processing

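The counts of member genes called were the same in all 15 comparisons with equal array medians, with brighter probe sets only and with a variance trend. No direction of a called value was reversed. After quantile normalization 1 gene (main count 0) was called with myclobutanil at 24 h, with triadimefon at 24 h and at 14 days (Sult1b1 each time), and 1 (main 0) for the triadimefon effect at 14 days against 24 h (Thra). With the 99th percentile covariate, chosen after seeing the data, the count was 1 (main 0) for myclobutanil at 24 h, for triadimefon at 24 h and 14 days, and for the triadimefon effect at 24 h against 6 h. For the controls, 24 h against 6 h gave 0 (main 1) and 14 days against 6 h gave 1 (main 2) in fits on the groups compared alone and on arrays of ending 11 alone. With the ending as a covariate the former gave 0, and with the mean of a gene's probe sets both gave 0. Leaving out 1 array at a time gave counts of 0 to 1 for controls at 24 h, 1 to 2 for controls at 14 days, and 0 to 1 for triadimefon at 14 days and for its effect at 14 days against 24 h (Thra, without triadimefon 14 day replicate 3). The cause of these changes was not tested. Of the 62 listed genes, quantile normalization called 2 higher and 1 lower with myclobutanil at 6 h (2 and 0 as deposited), 9 and 7 at 24 h (5 and 4) and 4 and 0 at 14 days (4 and 0). With triadimefon the counts were 3 and 2 at 6 h (1 and 0), 11 and 6 at 24 h (4 and 7), and 13 and 2 at 14 days (10 and 1).

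Arrays of treated and control groups with the same replicate number correlated at -0.374 to 0.344, with 10 of 30 above 0.1. No correlations of differently numbered arrays are given beside them, so whether the replicate numbers pair the arrays is not known. With the number as a replicate block the count stayed at 0 of 6 in each comparison with controls, at 1 and 2 for the control times and at 0 elsewhere, and Thrb on 1370474_at lost its call at 14 days against 6 h (-0.149, adjusted p = 0.051). The spread between arrays limits what can be read for Ttr, whose intervals against controls spanned -0.609 to 0.521 as deposited.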
